A study of Mus musculus with 50 samples.

Results

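Fgfbp1, Kcnt1 and Hif3a are 3 of the 52636 genes in a table of read counts from 50 mouse thyroid libraries. They were chosen because all 3 were higher in thyroids treated with antibodies against Notch1, Notch2 and Notch3 than in thyroids treated with antibodies against Jag1 and Jag2, 7 days after dosing. Their values in those 10 libraries are therefore given as a description, with no test, and the tests concern the other 40 libraries. All 3 symbols were found by Ensembl ID: ENSMUSG00000048373 for Fgfbp1, ENSMUSG00000058740 for Kcnt1 and ENSMUSG00000004328 for Hif3a.

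The mice were male C57BL/6, aged 10 to 14 weeks in the sample labels and 10 to 12 weeks in the series description, and each received antibodies in 1 intraperitoneal dose. The control was an anti-ragweed isotype antibody (RW, 40 mg/kg), which has no target in the mouse. The other treatments blocked the Notch ligands Jag1 and Jag2 (aJ1aJ2, 20 mg/kg each), the receptors Notch1 and Notch2 (aN1aN2, 5 and 10 mg/kg) or Notch1, Notch2 and Notch3 together (aN1aN2aN3, 5, 10 and 20 mg/kg). The 10 groups of 5 libraries were RW, aJ1aJ2 and aN1aN2 at 15 hours, the same treatments at 5 days, a first 7-day set of RW and aJ1aJ2, and a second 7-day set of aJ1aJ2 and aN1aN2aN3. The second set has no RW group among the libraries used, so aN1aN2aN3 could be compared only with aJ1aJ2 there. Thyroid hormone injections are named in the series description, and no label ties them to a mouse. Each library is titled as a separate numbered thyroid. The labels do not state that each came from a separate mouse, and the p-values measure the spread between these libraries.

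Total counts ran from 15.3 M to 52.8 M per library. In the second 7-day set they were 17.8 ± 2.06 M for aJ1aJ2 (SD, n = 5) and 21.9 ± 1.86 M for aN1aN2aN3. The summed level of 12 thyroid follicular cell markers was 13314 to 49958 CPM (counts scaled to a common library total) in the 10 libraries of the second set. It was 78834 CPM or more in all but 2 of the other 40, RW replicate 3 (7796 CPM) and 1 aJ1aJ2 library (24939 CPM) at 5 days. The second set was thus low in this sum beside the other sets. Most of the sum in the second set was thyroglobulin, so it says little about the other markers. In bulk tissue, fewer cells of a type and less RNA per cell cannot be told apart.

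Fgfbp1 encodes a secreted carrier protein that binds fibroblast growth factors (FGFs) held on heparan sulphate in the matrix and releases them to their receptors. Kcnt1 encodes a potassium channel opened by intracellular sodium, known chiefly from neurons. Hif3a encodes a subunit of the hypoxia-inducible factors (HIFs), which bind short hypoxia response elements in DNA when oxygen is low, and some of its splice forms oppose the related subunit encoded by Hif1a. In Notch signalling a ligand on 1 cell opens the way for cleavage of the receptor on its neighbour, and the freed receptor fragment then joins the DNA-binding protein RBPJ at target genes.

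The 250 bases before the RefSeq start (build GRCm38.p6) are shown for Fgfbp1 and Hif3a. Kcnt1 is left out because it was not matched among the RefSeq promoters. Fgfbp1 lies on the minus strand at chr5:43981800-43982049 and Hif3a on the minus strand at chr7:17062428-17062677. Capitals mark the RBPJ core letters TGGGAA and the hypoxia response core letters ACGTG or GCGTG, read on either strand.
Fgfbp1: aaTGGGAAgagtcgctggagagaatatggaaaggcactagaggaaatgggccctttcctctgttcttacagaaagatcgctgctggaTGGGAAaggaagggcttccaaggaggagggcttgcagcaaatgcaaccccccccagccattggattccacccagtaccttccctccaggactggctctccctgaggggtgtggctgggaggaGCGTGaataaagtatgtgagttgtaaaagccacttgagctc
Hif3a: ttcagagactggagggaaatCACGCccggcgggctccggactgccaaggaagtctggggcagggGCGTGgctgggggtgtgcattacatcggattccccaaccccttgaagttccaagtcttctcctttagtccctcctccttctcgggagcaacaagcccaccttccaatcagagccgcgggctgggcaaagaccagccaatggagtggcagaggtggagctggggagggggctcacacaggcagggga
The Fgfbp1 window held 2 RBPJ core matches and 1 hypoxia response core match, and the Hif3a window held 0 and 2. Among 32851 mouse promoter windows of the same length, 21.6% held the RBPJ letters and 38.6% the hypoxia response letters. A palindromic glucocorticoid response element, searched on both strands, matched 0 times in both windows and in 0.387% of all windows. These matches are letters in a window and are not evidence of binding.

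Under aN1aN2aN3 at 7 days all 3 genes stood above aJ1aJ2 with no overlap between the groups, but the arm that departed from the usual thyroid level was not the same for each. Fgfbp1 was high in aN1aN2aN3 beside every other group. For Kcnt1 and Hif3a the aN1aN2aN3 libraries were high and the aJ1aJ2 libraries of the second set also had the lowest mean of the 10 groups. The usual level was taken from libraries outside the second set, which itself has no RW group. Set and treatment therefore cannot be told apart in a departure of either arm from that level. Of the 18450 genes tested between these 2 groups, 19.6% were called by edgeR's quasi-likelihood test (9.19% rose and 10.4% fell), and 8.92% were higher without overlap. The 3 genes were chosen on this contrast, so nothing is read from their place in those shares.

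Fgfbp1 was at 75.8, 165, 266, 158 and 196 CPM in replicates 1 to 5 of aN1aN2aN3. In aJ1aJ2 of the same set it was at 9.22, 7.81, 12.1, 7.65 and 4.45 CPM. The lowest aN1aN2aN3 library was thus well above the highest aJ1aJ2 library, and the means of 172 ± 68.9 and 8.24 ± 2.76 CPM (SD, n = 5 each) differed 20.9-fold. The log2 fold change was 4.32 (SE 0.35). In the 40 libraries outside the second set, Fgfbp1 ran from 1.32 to 11.5 CPM with a median of 3.15. All 5 aN1aN2aN3 libraries exceeded all 40, and their mean was 54.6 times that median. For 14.8% of 21546 genes all 5 aN1aN2aN3 libraries lay above all 40, and for 2.27% they lay above all 45 others, as they did for Fgfbp1. The aJ1aJ2 libraries of the second set were also all above the median of the 40, with a mean 2.61 times that median. That mean was 2.03 times the mean of aJ1aJ2 in the first 7-day set, and the 2 sets overlapped.

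Kcnt1 was at 4.16, 14.9, 19.8, 8.83 and 19.7 CPM in aN1aN2aN3. In aJ1aJ2 of the second set it was at 1.14, 1.49, 0.836, 0.517 and 0.395 CPM. Replicate 1 of aN1aN2aN3 was the lowest of its group and still above every aJ1aJ2 library, and the means of 13.5 ± 6.88 and 0.875 ± 0.449 CPM differed 15.4-fold. The log2 fold change was 3.87 (SE 0.49). The 40 other libraries ran from 0.294 to 40.4 CPM with a median of 3.36. The aN1aN2aN3 mean was 4.01 times that median, and none of its libraries exceeded the highest of the 40. Among the 40, the values of 40.4, 23.6 and 14.3 CPM came from 3 libraries with high neuron markers, described below. Without those, the highest of the remaining 37 libraries was 6.51 CPM and 4 of the 5 aN1aN2aN3 libraries lay above it. The aJ1aJ2 libraries of the second set were all below the median of the 40, with a mean 0.261 times that median, and 0 of 5 were below the lowest of the 40. Kcnt1 was 5.45 times higher in aJ1aJ2 of the first 7-day set than of the second, without overlap. Between those 2 aJ1aJ2 groups 20.1% of genes were lower in the second set without overlap, so a difference of this kind was common.

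Hif3a was at 11.5, 17.9, 20.0, 17.8 and 25.6 CPM in aN1aN2aN3. In aJ1aJ2 of the second set it was at 1.24, 2.93, 0.757, 1.09 and 1.63 CPM. No library of one group came near the other, and the means of 18.6 ± 5.06 and 1.53 ± 0.844 CPM differed 12.2-fold, a log2 fold change of 3.54 (SE 0.36). The 40 other libraries ran from 1.57 to 17.4 CPM with a median of 3.25. The aN1aN2aN3 mean was 5.72 times that median, and 4 of its 5 libraries exceeded all 40. The aJ1aJ2 mean of the second set was 0.470 times the median, with 3 of 5 libraries below the lowest of the 40. Hif3a was 6.54 times higher in aJ1aJ2 of the first 7-day set than of the second, again without overlap. For 9.38% of genes all 5 aJ1aJ2 libraries of the second set lay below all 40, which Hif3a and Kcnt1 did not reach.

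**Figure D1:**
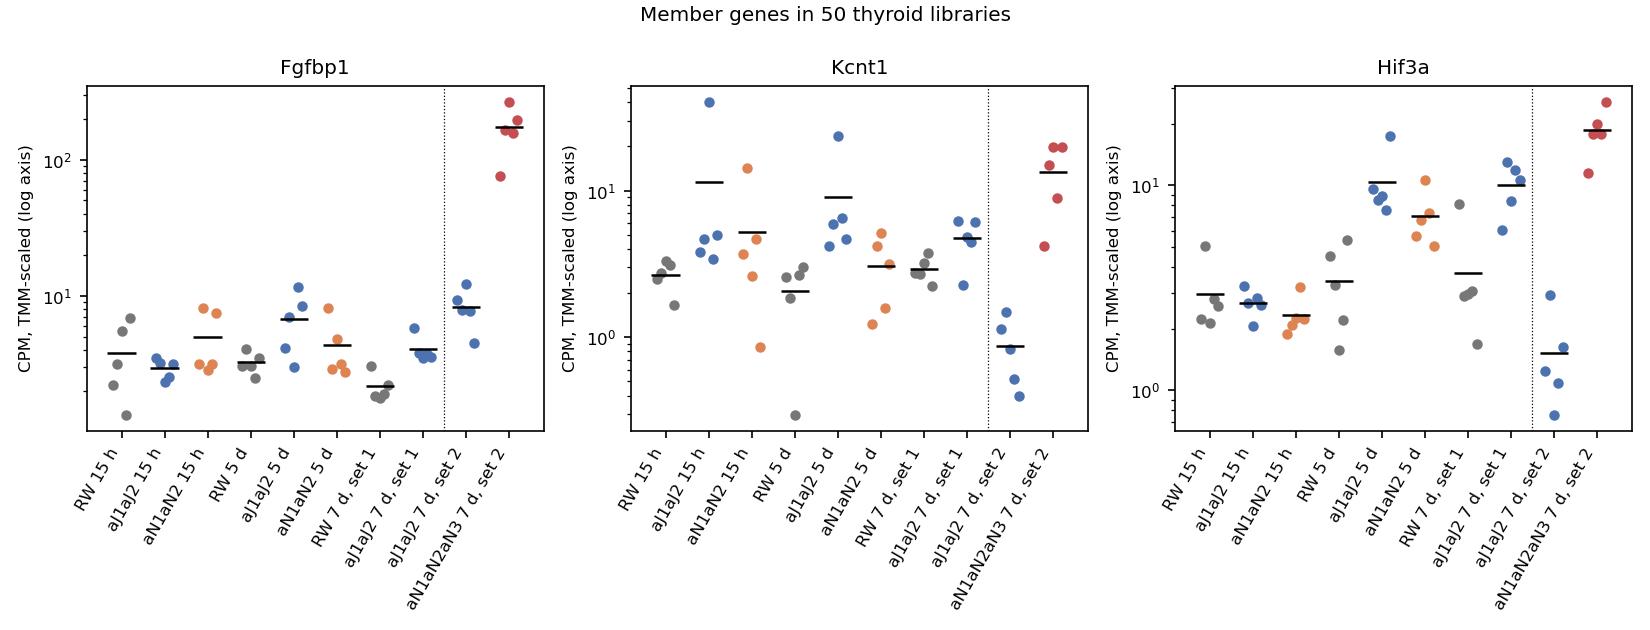
Each point is 1 library's level of the named gene in CPM on a log axis, bars are group means, and the dotted line separates the second 7-day set. All aN1aN2aN3 points lie above the aJ1aJ2 points of the second set, and for Fgfbp1 (75.8 to 266 CPM) also above all others.

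The order of the group means separates the genes further. For Fgfbp1 the aN1aN2aN3 mean ranked highest and aJ1aJ2 of the second set came next at 8.24 ± 2.76 CPM. The other 8 means lay between 2.15 ± 0.534 (RW, 7 days) and 6.78 ± 3.41 CPM (aJ1aJ2, 5 days), and most neighbours in that order lay within their SDs. For Kcnt1 the means of the 8 groups outside the second set ran from 2.08 ± 1.08 (RW, 5 days) to 11.5 ± 16.2 CPM (aJ1aJ2, 15 hours). Its 3 RW groups and aN1aN2 at 5 days lay between 2.08 and 3.06 CPM, within their SDs. For Hif3a the aJ1aJ2 means at 5 days (10.4 ± 3.97 CPM) and 7 days (10.0 ± 2.82 CPM) followed aN1aN2aN3 and did not differ beyond their SDs. The aN1aN2 mean at 5 days came next at 7.10 ± 2.18 CPM, and the 3 RW groups and both treated groups at 15 hours lay between 2.32 and 3.73 CPM.

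On the deposited FPKM scale, which divides by gene length, Fgfbp1 had the highest level of the 3 genes in all 50 libraries. Its group means were 0.776 to 3.16 FPKM outside aN1aN2aN3 and 64.1 FPKM in aN1aN2aN3. Hif3a means ran from 0.0552 to 0.654 FPKM and Kcnt1 means from 0.0179 to 0.27 FPKM. The FPKM values were read as scaled in 2 blocks of libraries, which were not cleanly apart, and these ranges of means span both. The gene lengths implied by the deposited values were 18.7 times that of Fgfbp1 for Kcnt1 and 10.6 times for Hif3a, and these set the gaps between genes. They differ from the exon lengths in GENCODE M21, which are 4.198 times that of Fgfbp1 for Kcnt1 and 2.97 times for Hif3a. With CPM divided by the M21 lengths, Fgfbp1 was highest in 45 libraries. Kcnt1 was highest in 2, replicate 3 of aJ1aJ2 at 15 hours and at 5 days, and Hif3a in 3, all aJ1aJ2 of the first 7-day set. The order of the genes thus depends on the lengths used. In GENCODE M21 the exons of the 3 genes overlap no exon of another gene.

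Whether blockade of the ligands or of Notch1 and Notch2 moved the same genes was tested in the 40 libraries outside the second 7-day set. The genes were chosen with earlier results of these data known, so these tests are not fully independent of the choice. None of the 3 passed edgeR's quasi-likelihood test at an adjusted p of 0.05 in any of 7 comparisons. The comparisons within a time point share libraries, and their values are given side by side. At 15 hours the 3 genes did not share a direction. At 5 and 7 days all 3 had higher means under aJ1aJ2 than under RW.

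At 15 hours Fgfbp1 was at 2.20, 3.15, 5.52, 1.32 and 6.81 CPM in RW and at 3.50, 3.19, 2.33, 2.51 and 3.16 CPM in aJ1aJ2. The aJ1aJ2 values fell within the RW range, and the log2 fold change was −0.41 (SE 0.43, edgeR adjusted p = 1.00, n = 5 each). Under aN1aN2 it was at 3.14, 8.07, 2.82, 3.15 and 7.48 CPM, with 2 libraries above the RW range and a log2 fold change of 0.36 over RW (edgeR adjusted p = 0.763). Markers of squamous epithelium, in which Fgfbp1 is known to be expressed, summed to 6909 CPM in aN1aN2 replicate 2 and to 1211 CPM in RW replicate 3, at Fgfbp1 levels of 8.07 and 5.52 CPM. All other libraries summed to 308 CPM or less. They included RW replicate 5 and aN1aN2 replicate 5 at 15 hours, with Fgfbp1 at 6.81 and 7.48 CPM. The highest Fgfbp1 level of the 40 libraries, 11.5 CPM, was in aJ1aJ2 at 5 days, where these markers summed to at most 39.4 CPM. The part of this tissue in these Fgfbp1 levels was not tested. In the second 7-day set the same markers summed to 13.8 to 20.6 CPM in aN1aN2aN3 and to 14.6 to 21.96 CPM in aJ1aJ2, where the groups overlapped. Of the 7 squamous markers 4 passed the filter and 1 rose, Krt13, from at most 0.259 CPM in aJ1aJ2 to 0.568 to 1.93 CPM in aN1aN2aN3. The epithelial markers Krt14, Sprr3 and Dsg3 stayed below 1 CPM in all 10 libraries.

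Hif3a at 15 hours was at 2.23, 5.06, 2.13, 2.78 and 2.59 CPM in RW, at 3.23, 2.67, 2.06, 2.83 and 2.62 CPM in aJ1aJ2 and at 1.88, 2.08, 2.26, 3.18 and 2.22 CPM in aN1aN2. The 3 groups overlapped, and RW replicate 2 was the highest library. The log2 fold changes over RW were −0.18 for aJ1aJ2 (edgeR adjusted p = 1.00) and −0.37 for aN1aN2 (edgeR adjusted p = 0.527). Without RW replicate 2 the first of these was 0.13.

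Kcnt1 at 15 hours was at 2.48, 2.72, 3.29, 3.08 and 1.67 CPM in RW and at 3.84, 4.70, 40.4, 3.43 and 4.99 CPM in aJ1aJ2. All 5 aJ1aJ2 libraries lay above all RW libraries, as they did for 1.09% of the 18513 genes tested, and 1 of them was far above the rest. The log2 fold change was 2.12 (SE 0.81), with an unadjusted p of 0.0200 and an adjusted p of 0.666 (edgeR), and 0.573% of genes were called in this comparison. Under aN1aN2 it was at 3.68, 14.3, 2.63, 4.71 and 0.857 CPM, which spanned the RW range on both sides, with a log2 fold change of 0.97 (edgeR adjusted p = 0.620), where 1.68% of genes were called. The aN1aN2 libraries at 15 hours carry sample IDs in the series of the 5-day libraries, apart from those of RW and aJ1aJ2 at 15 hours. Their FPKM values were also read as scaled in another block, which does not alter the counts tested here. What the ID series stands for is not stated, and ID series and treatment cannot be told apart for that group. This holds for every gene compared with aN1aN2 at 15 hours, Fgfbp1 and Hif3a included.

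Outside the second set Kcnt1 was highest in the 3 libraries with high neuron markers. The 5 markers Tubb3, Snap25, Stmn2, Elavl4 and Prph summed to 1035 CPM in aJ1aJ2 replicate 3 at 15 hours, to 475.5 CPM in aN1aN2 replicate 2 at 15 hours and to 777 CPM in aJ1aJ2 replicate 3 at 5 days. These were the 3 libraries with Kcnt1 at 40.4, 14.3 and 23.6 CPM, the highest of the 40. In the other 47 libraries the markers summed to 8.88 to 38.2 CPM. Without the 3 libraries, a choice made after seeing the data, Kcnt1 at 15 hours averaged 4.24 ± 0.727 CPM in aJ1aJ2 (SD, n = 4), and its log2 fold change over RW was 0.68 (edgeR adjusted p = 0.661). The aN1aN2 libraries then gave 0.15 over RW. The remaining 4 aJ1aJ2 libraries, at 3.43 to 4.99 CPM, still lay above the highest RW library at 3.29 CPM. The comparison of aN1aN2 with aJ1aJ2 at 15 hours changed its direction with 1 library, from a log2 fold change of −1.14 (edgeR adjusted p = 0.559) to 0.30 without aJ1aJ2 replicate 3, and 0.13% of genes were called there.

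In the second 7-day set the neuron markers did not separate the groups. They summed to 25.6 to 33.6 CPM in aN1aN2aN3 and to 18.7 to 36.8 CPM in aJ1aJ2, where Kcnt1 differed 15.4-fold. Within the list Tubb3 rose (log2 fold change 1.05) and Stmn2 fell (−1.62). Markers of the calcitonin-producing C cells (Calca, Calcb, Ret and Chga) did separate them: they summed to 21511 to 35402 CPM in aN1aN2aN3 and to 6761 to 17831 CPM in aJ1aJ2. Of the 4 C cell markers, 1 rose by edgeR, the calcitonin gene Calca (log2 fold change 1.06, adjusted p = 0.0259), while Ret, at −0.53, did not pass. The lowest C cell sum of all libraries, 157.7 CPM, was in RW replicate 3 at 5 days, which also had the lowest Kcnt1 level at 0.294 CPM. That library had the lowest follicular marker sum as well, 7796 CPM. The median C cell sum was 5808 CPM in RW at 15 hours, where Kcnt1 averaged 2.65 CPM. In aJ1aJ2 of the second set that median was higher, 12165 CPM, but Kcnt1 averaged 0.875 CPM, the lowest group mean. The part of C cell abundance in the Kcnt1 difference was not tested.

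**Figure D2:**
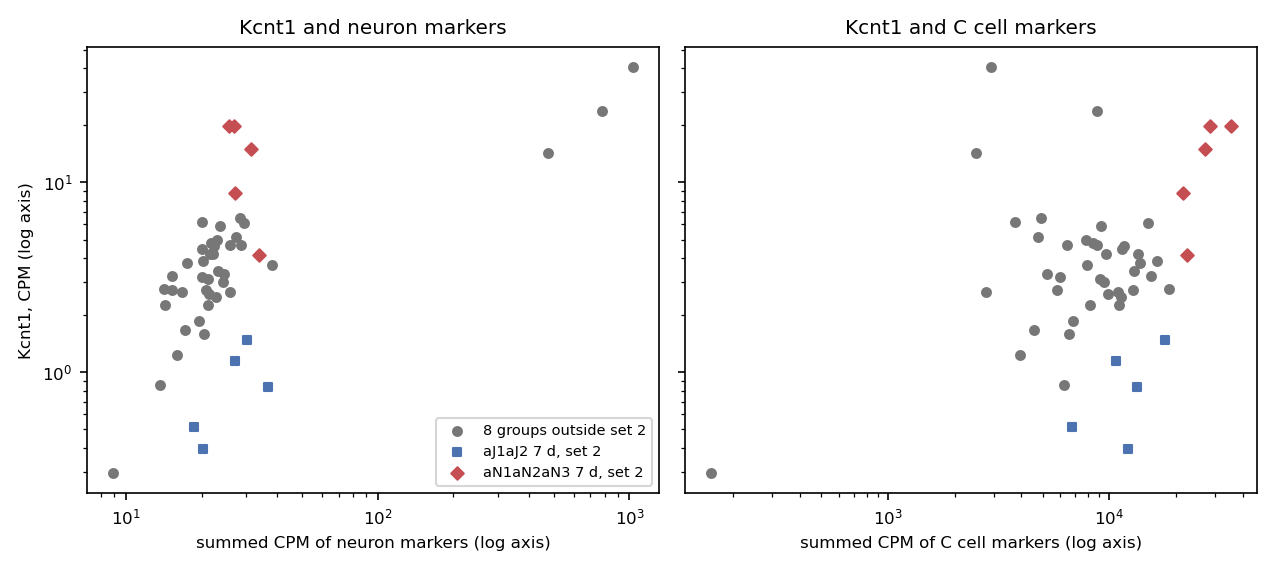
Each point is 1 library, with the Kcnt1 level in CPM against the summed CPM of 5 neuron markers (left) and 4 C cell markers (right), all on log axes. The 3 libraries with neuron sums of 475.5 to 1035 CPM stand at the upper right of the left panel, and the aN1aN2aN3 libraries stand apart only on the C cell axis.

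At 5 days Hif3a was at 4.53, 3.27, 1.57, 2.22 and 5.40 CPM in RW, at 9.64, 8.48, 8.85, 7.60 and 17.4 CPM in aJ1aJ2 and at 5.64, 6.81, 10.6, 7.35 and 5.06 CPM in aN1aN2. All aJ1aJ2 libraries lay above all RW libraries, as they did for 1.54% of the 18434 genes tested, and the aN1aN2 libraries overlapped both. The log2 fold change of aJ1aJ2 over RW was 1.62 (SE 0.34, edgeR adjusted p = 0.0883), and 0.179% of genes were called. DESeq2, which called 522 genes in this comparison against 33 by edgeR, called the same difference with an adjusted p of 0.000475. For aN1aN2 over RW it was 1.06 (SE 0.34, edgeR adjusted p = 0.278), with 5 of 5 libraries above the RW mean. Between aN1aN2 and aJ1aJ2 the log2 fold change was −0.56 (edgeR adjusted p = 1.00).

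Fgfbp1 at 5 days was at 3.04, 4.08, 3.04, 2.49 and 3.48 CPM in RW and at 4.10, 6.97, 2.96, 11.5 and 8.34 CPM in aJ1aJ2. In aJ1aJ2 4 of 5 libraries were above the RW range, and the log2 fold change was 1.06 (SE 0.38, edgeR adjusted p = 0.287). Under aN1aN2 it was at 8.16, 2.90, 4.75, 3.15 and 2.76 CPM, which overlapped RW at a log2 fold change of 0.44 (edgeR adjusted p = 0.836).

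Kcnt1 at 5 days was at 2.59, 1.86, 0.294, 2.65 and 3.00 CPM in RW and at 4.22, 5.91, 23.6, 6.51 and 4.64 CPM in aJ1aJ2, again without overlap. The log2 fold change was 2.14 (SE 0.63, edgeR adjusted p = 0.207), and 1.35 without the libraries with high neuron markers (edgeR adjusted p = 0.331). DESeq2 called it with all libraries at an adjusted p of 0.0209, among the 522 genes it called in this comparison. Under aN1aN2 it was at 1.23, 4.18, 5.15, 1.59 and 3.18 CPM, a log2 fold change of 0.55 over RW (edgeR adjusted p = 0.872). No gene was called between aN1aN2 and RW or aJ1aJ2 at 5 days by edgeR, while 1848 and 778 genes had an unadjusted p below 0.05 and DESeq2 called 402 and 49.

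At 7 days in the first set Hif3a was at 8.07, 2.89, 2.96, 3.06 and 1.68 CPM in RW and at 6.04, 13.1, 8.36, 11.9 and 10.6 CPM in aJ1aJ2. RW replicate 1 was the single RW library that reached the aJ1aJ2 range, and the log2 fold change was 1.43 (SE 0.39, edgeR adjusted p = 0.199). Fgfbp1 was at 3.05, 1.81, 1.77, 1.90 and 2.21 CPM in RW and at 5.82, 3.77, 3.49, 3.72 and 3.51 CPM in aJ1aJ2. The Fgfbp1 groups did not overlap, as was the case in this direction for 1.46% of the 16954 genes tested, and the log2 fold change was 0.92 (SE 0.21, edgeR adjusted p = 0.161). Kcnt1 was at 2.74, 2.70, 3.20, 3.74 and 2.25 CPM in RW and at 6.16, 2.27, 4.82, 4.47 and 6.14 CPM in aJ1aJ2, where 4 of 5 libraries were above the RW range. Its log2 fold change was 0.71 (SE 0.25, edgeR adjusted p = 0.322). By edgeR 0 genes were called here, 1968 had an unadjusted p below 0.05, and DESeq2 called 417, among them Hif3a (adjusted p = 0.0167) and Fgfbp1 (adjusted p = 0.00823).

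The change of the aJ1aJ2 effect with time was tested directly. From 15 hours to 5 days the effect on Hif3a was larger by 1.76 on the log2 scale and did not pass (SE 0.47, edgeR adjusted p = 0.0570), where 0.981% of 19676 genes were called. It passed the threshold without RW replicate 5 at 5 days (1.96, edgeR adjusted p = 0.0366). From 15 hours to 7 days the Hif3a effect was larger by 1.57 (edgeR adjusted p = 0.225), and by 2.06 without RW replicate 1 at 7 days (edgeR adjusted p = 0.0144), with 0.3% of genes called in all libraries. For Fgfbp1 the changes were 1.45 (edgeR adjusted p = 0.196) and 1.29 (edgeR adjusted p = 0.540). For Kcnt1 they were 0.04 (edgeR adjusted p = 0.996) and −1.36 (edgeR adjusted p = 0.836), and the second became 0.05 without the libraries with high neuron markers.

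**Figure D3:**
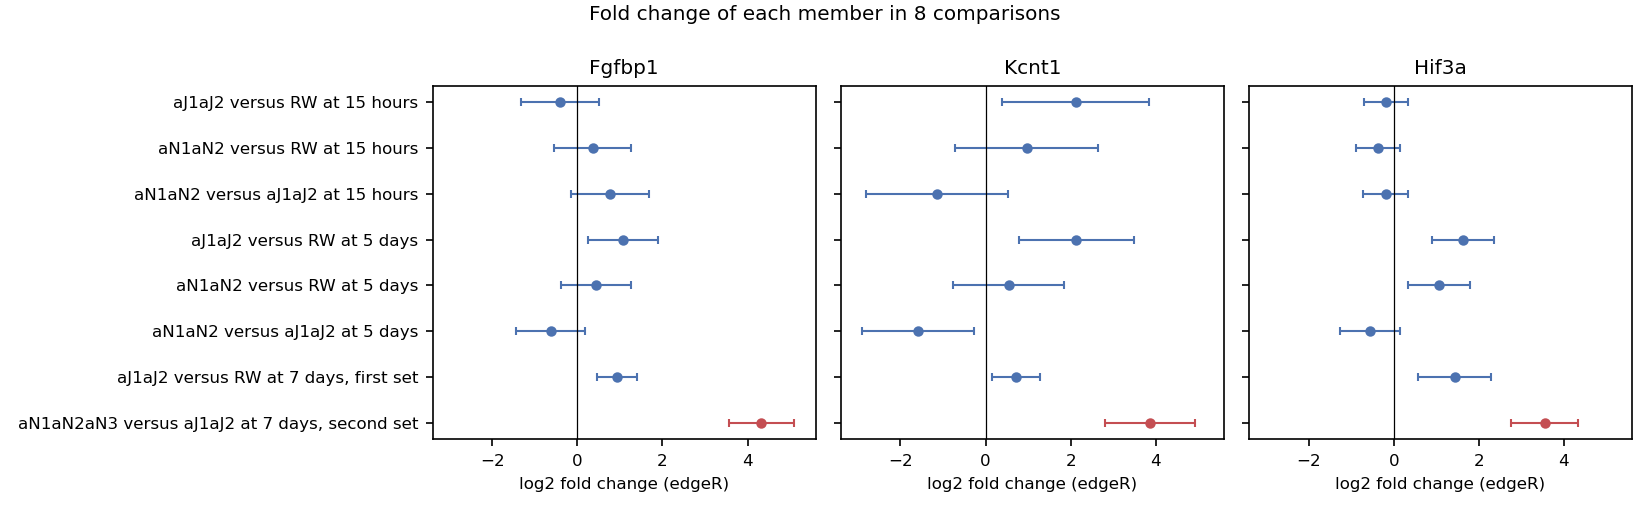
Points are log2 fold changes from edgeR and bars their 95% confidence intervals. Red marks the contrast the genes were chosen on, and blue the comparisons of libraries outside the second set. The genes were chosen with earlier results of these data known, so blue is not fully independent of the choice. The red points lie at 4.32, 3.87 and 3.54, and the Hif3a points move from −0.18 at 15 hours to 1.62 at 5 days under aJ1aJ2.

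The relatives and partners of each gene were then read in the contrast of aN1aN2aN3 with aJ1aJ2 at 7 days. Over 7 lists, 89 of 100 genes passed the filter on low counts, 21 rose and 8 fell by edgeR. Of all 18450 genes tested, 9.19% rose and 10.4% fell, and their median log2 fold change was −0.07. In the 7 comparisons of the other 40 libraries, 3 calls were made over the same lists. Notch3, the receptor of vascular mural cells, fell under aJ1aJ2 at 15 hours (log2 fold change −0.89, edgeR adjusted p = 0.0443), though its exons overlap another gene. Markers of mural cells moved with it: they summed to 224 to 343 CPM in aJ1aJ2 and to 379 to 672 CPM in RW, and 1 of 5, Rgs5, was called lower, with a median log2 fold change of −0.57. Their part in the Notch3 value was not tested. P4ha1, a collagen prolyl hydroxylase, rose under aN1aN2 at 15 hours (0.74, edgeR adjusted p = 0.0172), where ID series and treatment cannot be told apart. It fell under aJ1aJ2 at 5 days (−1.06, edgeR adjusted p = 0.0431). These 3 were named after their values were seen.

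Of the FGF ligands and receptors, 12 of 15 genes passed the filter, 1 rose and 3 fell, with a median log2 fold change of −0.07. Fgf7, a ligand that stromal cells send to epithelium, fell from a range of 3.02 to 8.84 CPM in aJ1aJ2 to one of 0.392 to 2.02 CPM in aN1aN2aN3 (log2 fold change −2.53, SE 0.47, edgeR adjusted p = 0.00449). Fgf10, a ligand of the same receptor, fell by 1.72 on the log2 scale (SE 0.34, edgeR adjusted p = 0.00641), without overlap. Their receptor gene Fgfr2 rose, from a range of 56.4 to 116 CPM in aJ1aJ2 to one of 129 to 209 CPM in aN1aN2aN3, a log2 fold change of 0.79 (SE 0.21, edgeR adjusted p = 0.0232). The Fgfr2 call was lost without replicate 3 of aJ1aJ2 or replicate 2 or 4 of aN1aN2aN3. Fgf2 also fell, by 0.68. Fgfbp3, which encodes another FGF carrier, had a log2 fold change of 0.83 (SE 0.29) and did not pass (edgeR adjusted p = 0.0609). Fgf2, Fgf10 and Fgfr2 share exon bases with other genes. Fibroblast markers had a median log2 fold change of −1.35 over 4 genes, with 1 of them lower, and their part in the ligand values was not tested.

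Feedback genes report FGF receptor activity in many cells. Of the 10 tested, 0 rose and 1 fell, with a median log2 fold change of −0.42. Etv5, a transcription factor induced by FGF signalling, fell from a range of 5.23 to 7.61 CPM in aJ1aJ2 to one of 2.77 to 4.26 CPM in aN1aN2aN3, a log2 fold change of −0.89 (SE 0.20, edgeR adjusted p = 0.0110). At an unadjusted p below 0.05, 1 of the 10 was higher and 3 were lower. DESeq2 called 1 of the 10 higher, as did edgeR without replicate 5 of aJ1aJ2 or replicate 1 of aN1aN2aN3.

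Of the potassium channel genes, 18 of 23 passed the filter, 1 rose and 0 fell by edgeR, with a median log2 fold change of −0.29. At an unadjusted p below 0.05, 1 was lower. Without replicate 4 or 5 of aJ1aJ2 or any 1 library of aN1aN2aN3, 1 or 2 of them fell, and 1 fell by DESeq2 and by edgeR without the filter. Kcnj15, an inward rectifier channel of epithelia, rose from a range of 53.5 to 168 CPM in aJ1aJ2 to one of 215 to 377 CPM in aN1aN2aN3, a log2 fold change of 1.27 (SE 0.28, edgeR adjusted p = 0.00996), although its exons overlap those of another gene. Kcnt2, the closest relative of Kcnt1, was at 1.55 to 3.37 CPM in aN1aN2aN3 and 2.02 to 4.35 CPM in aJ1aJ2. The 2 groups overlapped, and its log2 fold change of −0.29 (SE 0.29) did not pass (edgeR adjusted p = 0.516).

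Of the HIF subunits and oxygen sensors, 8 of 9 genes passed the filter, 1 rose and 2 fell, with a median log2 fold change of 0.03. Hif1a, the main oxygen-regulated subunit, fell from a range of 193 to 372 CPM in aJ1aJ2 to one of 126 to 192 CPM in aN1aN2aN3, with a log2 fold change of −0.88 (SE 0.21, edgeR adjusted p = 0.0137) and exons that overlap other genes. Epas1, which encodes HIF-2α, was at 33.7 ± 5.82 and 33.4 ± 11.6 CPM, a log2 fold change of −0.05 (SE 0.23, edgeR adjusted p = 0.899). Vhl, whose product marks HIF subunits for degradation, rose from a range of 26.0 to 32.5 CPM in aJ1aJ2 to one of 38.2 to 67.6 CPM in aN1aN2aN3, a log2 fold change of 0.86 (SE 0.16, edgeR adjusted p = 0.00480). The oxygen sensor Egln1 fell (−2.10), with overlapping groups, and the number that fell was 1 without replicate 4 of aJ1aJ2 or any aN1aN2aN3 library, and also by voom, on FPKM values or without the filter. The Hif3a difference thus came with an opposite change of Hif1a and with no call for Epas1.

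Of the HIF target genes, 21 of 22 passed the filter, 7 rose and 2 fell, with a median log2 fold change of 0.17. The stress gene Ddit4, an inhibitor of the growth kinase mTOR complex, rose from a range of 6.32 to 13.5 CPM in aJ1aJ2 to one of 46.3 to 95.3 CPM in aN1aN2aN3, a log2 fold change of 2.73 (SE 0.26, edgeR adjusted p = 0.000404). Ndrg1 rose by 1.66 (SE 0.27, edgeR adjusted p = 0.00281), with exons that overlap other genes. Kdm3a, a histone demethylase, rose by 1.16 (SE 0.18, edgeR adjusted p = 0.00229). The other 4 that rose were the glucose transporter gene Slc2a1, Pdk1, Pfkfb3 and Angptl4, and the 2 that fell were Vegfa and the lactate dehydrogenase gene Ldha. Neither Vegfa nor Ldha was without overlap between groups, and both calls were lost without replicate 3 of aJ1aJ2 or without any of replicates 2 to 5 of aN1aN2aN3, and also without the filter. Without any other library 1 gene of the list fell.

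Of the glucocorticoid-responsive genes, 13 of 13 passed the filter, 11 rose and 0 fell, and the median log2 fold change was 1.40. Errfi1, an inhibitor of EGF receptor signalling, rose from a range of 63.5 to 73.5 CPM in aJ1aJ2 to one of 128 to 728 CPM in aN1aN2aN3, a log2 fold change of 2.19 (SE 0.42, edgeR adjusted p = 0.00590). The cell cycle inhibitor gene Cdkn1a, whose exons overlap another gene, rose by 2.12 (SE 0.56, edgeR adjusted p = 0.0253), and the clock gene Per1 rose by 1.94 (SE 0.36, edgeR adjusted p = 0.00502). The genes without a call were Mt2 at 0.38 and Arrdc2 at 1.62. Without replicate 5 of aN1aN2aN3 the count was 6, and without replicate 3 of aN1aN2aN3, or replicate 1 or 2 of aJ1aJ2, it was 7. The list was drawn up with a rise of such genes in these libraries already known, so the count is not independent evidence of direction. Under aJ1aJ2 in the first 7-day set the same list had a median of 0.91 with 0 calls, and at 5 days −0.21 with 0 calls. Mean Hif3a was higher under aJ1aJ2 than under RW at both times, without a call by edgeR. A link between this list and the Hif3a level was not tested.

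Of the Notch readouts, 7 of 8 genes passed the filter and 0 were called between aN1aN2aN3 and aJ1aJ2 by edgeR, DESeq2 or voom (1 was lower at an unadjusted p below 0.05), with a median log2 fold change of −0.08. Both arms of this contrast block Notch signalling, at the receptors or at 2 of the ligands, so the contrast does not compare blocked with unblocked tissue.

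**Figure D4:**
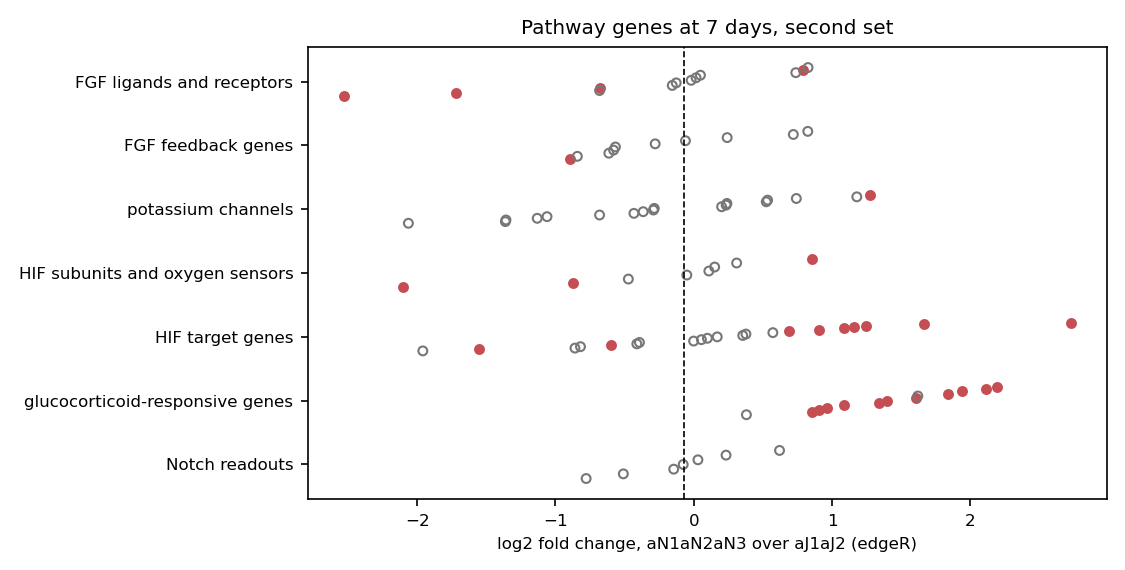
Each point is 1 gene of the named list, placed by its log2 fold change of aN1aN2aN3 over aJ1aJ2 at 7 days in the second set. Filled points passed edgeR's test at an adjusted p of 0.05, open points did not, and the dashed line is the median of all genes at −0.07.

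Other cell types also moved between the 2 groups. Follicular markers summed to 28568 to 49958 CPM in aN1aN2aN3 and 13314 to 25222 CPM in aJ1aJ2. Most of each sum was thyroglobulin (Tg), which rose (log2 fold change 1.31), while the iodide transporter gene Slc5a5 fell (−1.91). Of 12 follicular markers 11 passed the filter, 2 rose and 1 fell. Adipocyte markers summed to 203 to 936 CPM in aN1aN2aN3 and 2104 to 2731 CPM in aJ1aJ2, with 4 of 6 lower. Of the 3 brown fat markers 2 fell. Of 5 mural markers 2 fell, Rgs5 (−1.27) and Cspg4 (−1.94), and their sums were 66.6 to 118 CPM in aN1aN2aN3 and 107 to 173 CPM in aJ1aJ2. Of 5 endothelial markers Pecam1 (1.15) and Cdh5 (1.09) rose and Kdr (−0.99) and Emcn (−1.18) fell, and the sums overlapped. Skeletal muscle markers had a median of −1.73 with 0 of 8 called, and ran from 245.8 to 103304 CPM in aJ1aJ2. The part of these shifts in the levels of the 3 genes was not tested.

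The genes whose levels ran most alike to each member were listed by Spearman correlation as a description, over libraries that share treatment groups and sets. Over the 40 libraries outside the second set, the genes named for Kcnt1 were the sodium channel gene Scn8a (rho = 0.915), Ggt7 (0.903), the secretory granule gene Chgb (0.892) and Snhg11 (0.880). For Hif3a the first 5 were Olfr543 (0.845), the kinase gene Map3k6 (0.823), Hipk1 (0.798), Tacc1 (0.777) and Rnf152 (0.776). For Fgfbp1 they were lower, with 2610028H24Rik (0.697), Gm15889 (0.661), Selenbp1 (0.657), Map3k19 (0.641) and Gm28856 (0.638). Olfr543, Gm15889 and Gm28856 averaged only 0.538, 0.498 and 0.124 CPM in these libraries, so their ranks rest on few reads.

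Over all 50 libraries, which include those used to choose the genes, Kcnt1 ran most like Chgb (0.924), Ggt7 (0.896), Snhg11 (0.891), Oprl1 (0.811) and Mapk8ip2 (0.806). Hif3a ran most like Map3k6 (0.832), Cpsf1 (0.830), Acer2 (0.787), Cyp2d22 (0.782) and Odf2 (0.781). Fgfbp1 ran most like 2610028H24Rik (0.768), Prdx6 (0.755), Selenbp1 (0.754), Gm22362 (0.751) and Abcg2 (0.751). Gm22362 averaged only 0.145 CPM, so its rank rests on few reads. Chgb, Ggt7 and Snhg11 for Kcnt1, Map3k6 for Hif3a, and 2610028H24Rik and Selenbp1 for Fgfbp1 were named over both the 40 and the 50 libraries. Among the members themselves the correlations over the 40 libraries were weak, at 0.198 for Fgfbp1 with Kcnt1, 0.389 for Fgfbp1 with Hif3a and 0.305 for Kcnt1 with Hif3a.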

How the data were processed

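Per the labels' protocols, Trizol and column extracts of total RNA were read as 50-base single-end reads on an Illumina instrument, at a stated 40 M reads per sample. GSNAP and limma are named in the submitters' processing notes, without versions. The counting program, strand setting and genome build were not given in the sources used here. As deposited, the count table holds whole reads per gene (not normalized), and the authors also deposited FPKM values. Count divided by FPKM showed that the authors scaled the FPKM values in 2 blocks of libraries.

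Groups were taken from the titles. The 2 sets of aJ1aJ2 at 7 days were told apart by their series of sample IDs. Of 52636 genes 38478 had a count, and 233 had no symbol in GENCODE M21. Counts were tested with edgeR 4.0.16 in R 4.3.3 (TMM, filterByExpr with a minimum count of 10 and total of 15, robust glmQLFit, two-sided glmQLFTest), fitted per time point or set and adjusted by Benjamini-Hochberg over all genes tested at a threshold of 0.05. Levels are CPM on TMM-scaled totals over all 50 libraries. Interactions were fitted over 40 libraries. Alternatives used DESeq2 1.42.0, limma 3.58.1 (with a pseudocount of 0.1 on FPKM) and other filters and scalings, and the code was tested on simulated data. No 2 replicates agreed within sampling noise (smallest chi-square per degree of freedom 17.1 over 100 pairs).

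The named genes are the 3 members, the called list genes with the largest fold change and no overlap (up to 3 per list), Fgfbp3, Kcnt2, Hif1a and Epas1, and the 5 genes most like each member, of which 1 is not reported here. The members and lists were chosen with earlier results of these data known. Sequences come from RefSeq (GRCm38.p6), in which 2 of the 3 genes were matched. Kcnt1 was not.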

Additional observations from a re-analysis of the deposited data

Results flagged for a closer look

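In 7 of 30 groups of 5 libraries, 1 library stood far from the other 4 by Dixon's criterion. Its rate of about 1 in 20 groups holds for independent, normally distributed values. CPM was screened without logs, all 7 flagged values were the highest of their group, and the genes were read in the same libraries. That rate is therefore no measure of an excess here. For Kcnt1 these were aJ1aJ2 replicate 3 at 15 hours (40.4 CPM, next 4.99), aN1aN2 replicate 2 at 15 hours (14.3 CPM, next 4.71) and aJ1aJ2 replicate 3 at 5 days (23.6 CPM, next 6.51), the 3 libraries with high neuron markers. For Hif3a they were RW replicate 2 at 15 hours (5.06 CPM, next 2.78), aJ1aJ2 replicate 5 at 5 days (17.4 CPM, next 9.64) and RW replicate 1 at 7 days (8.07 CPM, next 3.06). For Fgfbp1 it was aJ1aJ2 replicate 1 at 7 days in the first set (5.82 CPM, next 3.77). None of the 7 was in the second 7-day set.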

How the results depend on the processing

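Of the alternatives run for the members' tests, 490 kept direction and side of the threshold, 6 newly passed it and 14 changed sign. By DESeq2 the aJ1aJ2 effect passed for Fgfbp1 at 7 days (0.92), for Hif3a at 5 days (1.61) and 7 days (1.44) and for Kcnt1 at 5 days (2.14). The other 2 were the Hif3a changes with time without 1 RW library. On FPKM values with limma the aN1aN2aN3 fold change over aJ1aJ2 was 2.26 for Hif3a and 1.55 for Kcnt1, where the added 0.1 is large beside their levels. With unscaled CPM the Hif3a log2 ratio of aN1aN2aN3 to the median of the 40 was 2.97, against 2.52. Unscaled totals moved the median of all genes at 5 days by 0.20 for aJ1aJ2 over RW.

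Leaving out 1 library gave the Hif3a aJ1aJ2 effect at 15 hours as −0.28 to 0.13, and Kcnt1 for aN1aN2 over aJ1aJ2 at 15 hours as −1.97 to 0.30. The Hif3a change from 15 hours ranged from 1.47 to 1.96 (5 days) and from 1.29 to 2.06 (7 days). The Kcnt1 change from 15 hours to 5 days ranged from −0.77 to 1.43, and was −0.0123 without the filter. From 15 hours to 7 days it ranged from −1.58 to 0.0363, and was 0.0491 without the 3 libraries with high neuron markers. List genes that fell under aN1aN2aN3 numbered 5 without the filter and 5 to 9 with 1 library left out, against 8. The cause was not tested.

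Same-numbered replicates did not deviate together in every pair of any comparison (correlations from −0.65 to 0.76), so the numbers were not taken as pairs. Their mean correlation was 0.43 for aN1aN2 with RW at 15 hours and 0.39 for aJ1aJ2 with RW at 5 days, against −0.10 and −0.02 for other numbers. With the replicate block the Kcnt1 change from 15 hours to 5 days was −0.0106, 4 list genes fell, the call of Fgfr2 and both calls of lower HIF targets were lost, 1 HIF subunit or sensor gene fell against 2, and 2100 genes were called between aN1aN2aN3 and aJ1aJ2 against 3614. In no comparison did every library correlate best with its own number. The block changed no other member's direction or call.

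Counts over all genes were less stable. For aN1aN2aN3 over aJ1aJ2 the count ran from 2042 (without replicate 3 of aN1aN2aN3) to 4305, with 2298 and 2263 without its replicates 2 and 5. For aJ1aJ2 over RW at 15 hours it was 106, with 265 by DESeq2, 62 by voom, 0 on FPKM values, 48 with only those groups, 36 with the block and 35 to 127 with 1 library left out. At 5 days it was 33, with 522 by DESeq2, 3 on FPKM values, 9 without the filter, 0 with only those groups, 1 with the block and 0 to 197 with 1 left out. At 7 days it was 0, with 417 by DESeq2, 20 without the filter and 0 to 20 with 1 left out. For aN1aN2 over RW at 15 hours it was 311, with 842 by DESeq2, 186 with the block and 120 to 331 with 1 left out, and over aJ1aJ2 24, with 504, 11 with only those groups and 9 to 44. The changes with time gave 193 (105 without the filter, 94 to 592 with 1 left out) and 59 (26 to 104). In the fits FPKM values were not compared between blocks, so that alternative was not run for aN1aN2 at 15 hours.

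Depth limits Kcnt1 and Hif3a in aJ1aJ2 of the second set, where levels near 1 CPM rest on library totals of 15.3 M to 20.0 M counts.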
